A study of Mus musculus with 30 samples.

Results

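Tubb3, Ly6a, Icam1 and Ido1 are 4 genes that were picked from 31427 gene symbols of an RNA sequencing table because they rose with interferon gamma (IFNγ) and do not encode interferon-inducible GTPases. They were selected on measured values: the rule names no cut-off and no genotype. Their rise with IFNγ over media and over interferon alpha (IFNα) is therefore given for every line as values with no test, as is every comparison that holds WT libraries. Their calls in these comparisons are counted only in the closing section, to show how they depend on the processing, and nothing is read from them. Tests are kept for IFNα against media in the mutant lines and for differences between mutant lines. Differences between mutant lines under IFNγ, or in the IFNγ response, use values that may have served in the choice. Their p-values are printed, and nothing is read from them. The IFNα libraries may have served too, through IFNγ over IFNα, so nothing is read from the lack of a call with IFNα. The media libraries may have served through IFNγ over media, which favours genes that are low in media. Calls with IFNα against media, or between lines in media, are therefore descriptions of these libraries. The cells are DC3.2, a mouse dendritic cell line.

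Of the 30 libraries, 24 form 12 groups of 2. They hold 4 lines: DKO, targeted for both interferon regulatory factors IRF1 and IRF2; IRF2KO; IRF1KO; and WT. Each line was kept for 2 h with IFNγ at 2 ng/mL, with IFNα at 5000 U/mL or in media. A further 6 unreplicated libraries cover IRF2KO and WT cells after 2 h of LPS (no dose is given in the labels), after 2 h of IFNα, and at 0 h. The replicated titles mark the single-targeted lines with sg and WT with nosg; no label names a targeting control, says whether a line is 1 clone, or says that the 2 replicates are separate cultures, so p-values measure the spread between these libraries, which may be technical. The titles write the cells as DC32R in the replicated and as Dc3.2 in the single libraries, while the cell line field reads DC3.2 for both.

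IFNα, a type I interferon, and IFNγ, the type II interferon, act through separate receptors, and many genes that respond to IFNγ carry the palindromic GAS element. IRF1 and IRF2 bind interferon response elements and are known mainly as an activator and as an attenuator, although IRF2 can also activate. In dendritic cells these pathways control antigen presentation, adhesion to T cells and immune restraint. Tubb3 encodes class III β-tubulin, best known as a neuronal tubulin isotype. Ly6a encodes Sca-1, a GPI-anchored surface protein used as a marker of mouse haematopoietic stem cells. Icam1 encodes the adhesion molecule that binds the leukocyte integrin LFA-1. Ido1 encodes indoleamine 2,3-dioxygenase, which starts tryptophan breakdown along the kynurenine route.

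On the GRCm38 build, GENCODE places Tubb3 on chr8:123411424-123422015 on the plus strand and Ido1 on chr8:24584136-24597009 on the minus strand. Icam1 lies on chr9:21015985-21028817 on the plus strand, and Ly6a on chr15:74994877-74998031 on the minus strand. All 4 are protein-coding genes. Tubb3, Icam1 and Ly6a had a larger difference from media with IFNγ than with IFNα in each line. RefSeq promoter windows of GRCm38.p6 were at hand for Tubb3 and Icam1 alone, and these are shown. The first line is 121 bases upstream of the GENCODE start of Tubb3, at chr8:123411303-123411423, and the second is 250 bases upstream of the RefSeq start of Icam1, at chr9:21015690-21015939, both on the plus strand.
Tubb3: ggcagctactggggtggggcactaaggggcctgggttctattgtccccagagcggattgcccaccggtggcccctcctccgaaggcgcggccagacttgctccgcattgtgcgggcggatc
Icam1: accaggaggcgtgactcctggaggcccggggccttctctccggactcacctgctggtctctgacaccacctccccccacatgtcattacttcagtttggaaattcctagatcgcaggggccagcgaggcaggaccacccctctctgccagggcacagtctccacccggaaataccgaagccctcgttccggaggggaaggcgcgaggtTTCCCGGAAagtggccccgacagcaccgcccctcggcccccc
Capitals mark the match to the GAS letters TTCNNNGAA, which read alike on both strands. The 250-base window of Icam1 holds 1 match, 42 to 34 bases before the RefSeq start, and 7.02% of 32851 windows of that length hold one. The 250-base window of Tubb3 holds no match to these letters. Neither window holds an IRF-type pair of GAAA repeats with 2 bases between them, read on both strands, which 2.98% of all windows hold. A match is a description of letters, and neither a match nor its lack says whether a factor binds.

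All values are deposited TPM, a transcript's length-corrected share of its library, and sequencing depth is unknown because such shares hold no read totals. Each replicated library had 10911 to 11101 genes at 1 TPM or more, its top gene held 2.08% to 6.84% of the TPM, and replicates correlated across genes at r = 0.991 to 0.996. Of 13 dendritic cell markers 9 averaged at least 1 TPM, with summed levels of 4750.73 to 6646.41 TPM. Cd74, with a mean of 4245 TPM, made up most of this sum. Flt3, a defining marker, was at 0 in all 24 libraries, and Clec9a, Xcr1 and Siglech averaged 0.0275, 0.1638 and 0.006667 TPM. Macrophage and monocyte markers were also present (7 of the 7 with values, summed 2491.2 to 3488.15 TPM). Adgre1, also listed, had no values under that name. None of the 7 was called with IFNγ, but Fcgr1 was called higher with IFNα in each line. Irf8 was the only dendritic cell marker called with IFNγ. Lymphocyte markers summed to at most 0.65 TPM and stromal markers to at most 0.36 TPM. Irf1 RNA was not lower in the lines labelled as lacking IRF1: in media it stood at 28.14 and 36.01 TPM in DKO and 30.64 and 23.57 TPM in IRF1KO cells, against 19.7 and 22.52 TPM in WT cells. Irf2 RNA stayed between 17.35 and 42.07 TPM over all 24 libraries; with IFNγ it averaged 19.55 ± 2.80 TPM in DKO and 31.96 ± 1.86 TPM in WT cells (SD, n = 2 each), a called difference of −0.69 ± 0.14 on the log2 scale (SE, limma adjusted p = 0.0168), and no other comparison of a mutant line with WT was called for it. Targeting need not remove the transcript, and the RNA levels do not settle it.

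Tubb3 was nearly silent without IFNγ and strongly expressed with it in each of the 4 lines. With IFNγ it stood at 53.81 and 76.42 TPM in DKO, 47.28 and 48.77 TPM in IRF2KO, 72.96 and 73.25 TPM in IRF1KO, and 59.52 and 39.57 TPM in WT cells. With IFNα it stood at 1.73 and 3.3 TPM in DKO, 2.08 and 1.93 TPM in IRF2KO, 1.25 and 3.01 TPM in IRF1KO, and 1.51 and 1.93 TPM in WT cells. In media it stood at 1.72 and 1.96 TPM in DKO, 1.74 and 1.26 TPM in IRF2KO, 1.17 and 1.89 TPM in IRF1KO, and 1.76 and 1.93 TPM in WT cells. The 8 libraries with IFNγ were thus all above the other 16, with no overlap, and IFNα libraries overlapped media libraries in DKO, IRF1KO and WT but lay above them in IRF2KO. In bulk RNA a change in the share of cells that express a gene and a change in its RNA per cell cannot be told apart.

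Differences and their standard errors come from limma on log2(TPM + 1), with Benjamini-Hochberg adjusted p-values over 11842 genes where a test is given. On this scale Tubb3 with IFNγ stood above media by 4.52 ± 0.27 in DKO (SE, n = 2 per group), 4.30 ± 0.27 in IRF2KO, 4.89 ± 0.27 in IRF1KO and 4.12 in WT cells. The ratio of mean TPM, IFNγ over media, was 35.4 in DKO, 32.0 in IRF2KO, 47.8 in IRF1KO and 26.9 in WT cells. IFNγ stood above IFNα by 4.25 ± 0.27 in DKO, 4.03 ± 0.27 in IRF2KO and 4.62 ± 0.27 in IRF1KO cells. IFNα against media was tested in the mutant lines and was not called for Tubb3. A favour for IFNγ over IFNα may have served in the choice, so nothing is read from the lack of a call. The IFNα differences of the mutant lines reached at most 0.27, in DKO, with 95% intervals reaching at most 0.85. The WT value was −0.07.

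The order of the 12 group means of Tubb3 began with IRF1KO (73.1 ± 0.21 TPM, SD, n = 2), DKO (65.12 ± 15.99 TPM), WT (49.55 ± 14.1 TPM) and IRF2KO (48.03 ± 1.05 TPM), all with IFNγ. Each of these overlapped the next. The next group, DKO with IFNα, averaged 2.515 ± 1.11 TPM, and from there down each neighbour overlapped the next to IRF2KO in media, at 1.26 and 1.74 TPM.

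**Figure D1:**
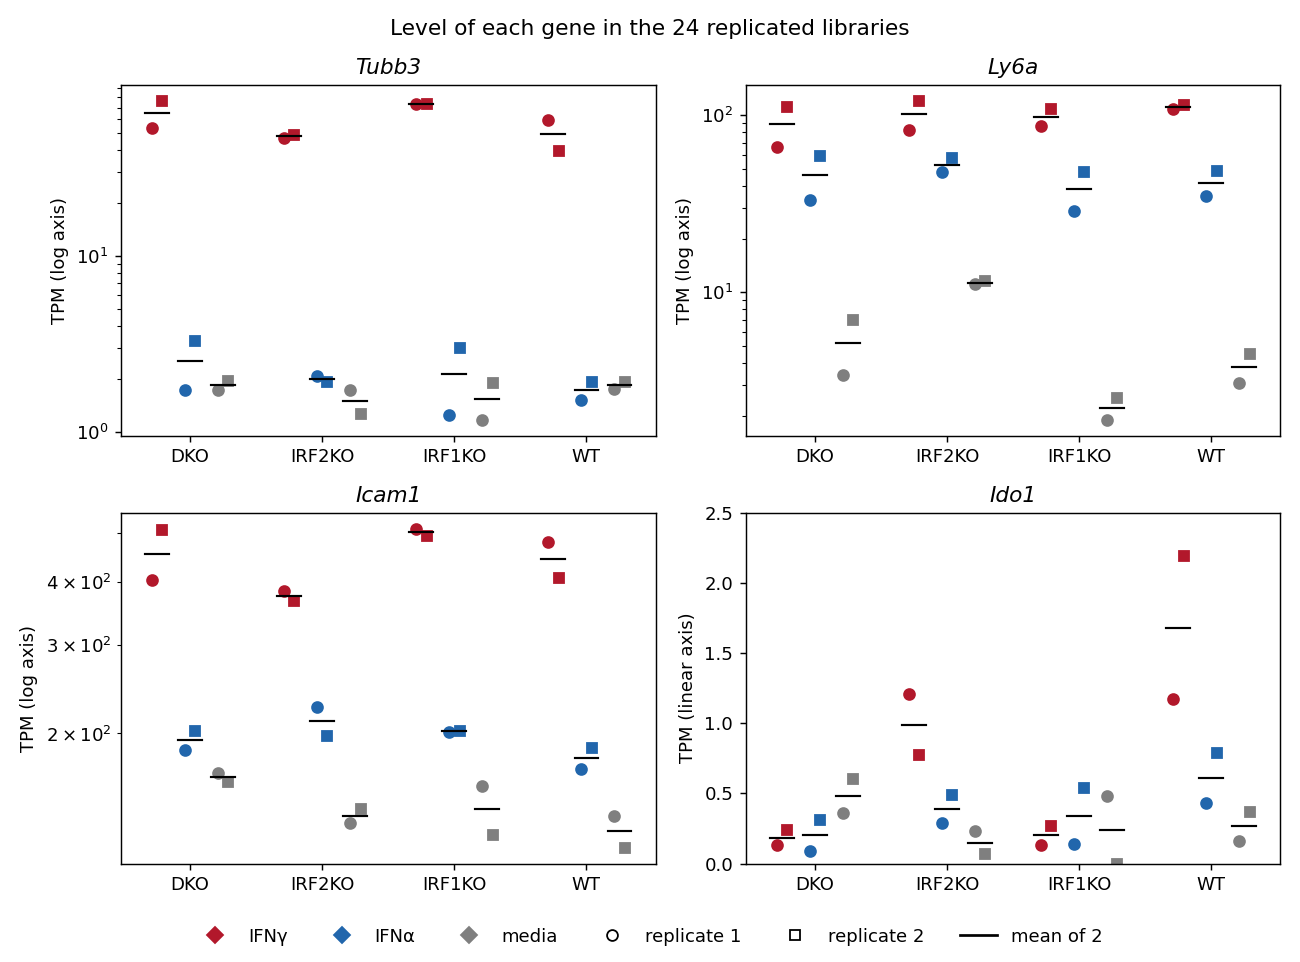
TPM of Tubb3, Ly6a, Icam1 (log axes) and Ido1 (linear axis) in each of the 24 replicated libraries, by line, with IFNγ, IFNα and media from left to right; circles and squares are replicates 1 and 2, and bars their mean. Tubb3 was at 39.57 TPM or more in the 8 IFNγ libraries and at 3.3 TPM or less in the other 16, Ly6a also rose with IFNα, and Ido1 passed 1 TPM in 3 libraries.

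Of 8 β-tubulin genes listed 5 passed the filter of at least 1 TPM in at least 2 of 24 libraries, and none of the 4 others was called with IFNγ in any line. The main isotypes of these cells were Tubb5, with a mean of 1056 TPM over 24 libraries, Tubb6 with 400.1 TPM and Tubb4b with 339.1 TPM, and none was called in any interferon comparison. Their large share leaves Tubb3, at its highest, a small part of the β-tubulin RNA: the other β-tubulin genes summed to 1648.5 to 2016.72 TPM per library. The median of the 5 genes with IFNγ was 0.08 in DKO, −0.08 in IRF2KO, 0.04 in IRF1KO and −0.10 in WT cells on the log2 scale, against −0.06, 0.02, −0.02 and −0.01 over all genes in the same lines. Neuronal markers were at or near 0: 8 of 12 neuronal markers, among them Map2, Dcx, Snap25 and Nefl, were at 0 in all 24 libraries, and the list summed to 0.26 to 0.91 TPM. Of 5 genes listed as its neighbours 3 were tested, and none was called with either interferon. Mc1r, the melanocortin receptor gene that ends upstream of it at chr8:123407107-123410744, stayed between 0.04 and 0.94 TPM and was below the filter, while Def8, Tcf25 and Gas8 were tested and not called.

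Ly6a responded to both interferons, and more to IFNγ. With IFNγ it stood at 66 and 112.03 TPM in DKO, 82.1 and 120.64 TPM in IRF2KO, 86.68 and 108.47 TPM in IRF1KO, and 108.75 and 113.67 TPM in WT cells. With IFNα it stood at 33.17 and 58.96 TPM in DKO, 47.85 and 57.15 TPM in IRF2KO, 28.72 and 47.71 TPM in IRF1KO, and 34.92 and 48.51 TPM in WT cells. In media it stood at 3.42 and 6.98 TPM in DKO, 11.12 and 11.56 TPM in IRF2KO, 1.9 and 2.53 TPM in IRF1KO, and 3.09 and 4.48 TPM in WT cells. In each line the 3 treatments did not overlap, in the order IFNγ, IFNα, media.

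Ly6a stood higher with IFNα than in media in each mutant line, where the media libraries may have served in the choice. On the log2 scale it rose by 2.93 ± 0.34 in DKO (SE, n = 2 per group, limma adjusted p = 6.08e-05), by 2.11 ± 0.34 in IRF2KO (adjusted p = 0.0017) and by 3.57 ± 0.34 in IRF1KO cells (adjusted p = 9.33e-06), and the WT value was 3.16. With only the compared groups in the fit, the DKO call was lost (limma adjusted p = 0.273). With IFNγ, Ly6a stood above media by 3.87 ± 0.34 in DKO, 3.03 ± 0.34 in IRF2KO, 4.94 ± 0.34 in IRF1KO and 4.57 in WT cells. In ratios of mean TPM, IFNγ over media was 17.1 in DKO, 8.94 in IRF2KO, 44.1 in IRF1KO and 29.4 in WT cells. IFNα over media was 8.86 in DKO, 4.63 in IRF2KO, 17.3 in IRF1KO and 11 in WT cells.

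IFNγ libraries were above IFNα libraries of the same line by 0.94 ± 0.34 in DKO, 0.92 ± 0.34 in IRF2KO and 1.37 ± 0.34 in IRF1KO cells (log2, SE). Replicate 2 was above replicate 1 in 12 of 12 groups, by 0.46 on average on the log2 scale.

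In media the levels of Ly6a were spread across the lines. IRF2KO cells, at 11.34 ± 0.31 TPM (SD, n = 2), lay above every other media library, and IRF1KO cells, at 2.215 ± 0.45 TPM, below every other. Between them, DKO averaged 5.20 ± 2.52 TPM and WT 3.785 ± 0.98 TPM, and these 2 overlapped. IRF2KO against WT gave 1.38 ± 0.34 on the log2 scale, with no test. DKO stood above IRF1KO by 0.89 ± 0.34 (limma adjusted p = 0.489, 0.0205 with the block, up to 1 over the alternatives). Against IRF2KO, DKO stood at −1.06 ± 0.34 (adjusted p = 0.582, 0.0238 with the block, up to 1 over the alternatives), where the median of all genes was 0.13.

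Under interferon the lines lay closer together on the log2 scale. With IFNα every pair of lines overlapped except IRF2KO, which lay just above IRF1KO, and differences from WT were 0.10 in DKO, 0.34 in IRF2KO and −0.15 in IRF1KO. With IFNγ, DKO differed from IRF1KO by −0.17 ± 0.34 (limma adjusted p = 0.944) and from IRF2KO by −0.21 ± 0.34 (adjusted p = 1). The IFNγ response of IRF2KO was below that of IRF1KO (IRF2KO minus IRF1KO −1.91 ± 0.48, 95% interval −2.93 to −0.89; limma gave it an adjusted p of 0.492, and of 0.00404 when the replicate numbers were blocked, with up to 1 over the alternatives). Nothing is read from these p-values, since the IFNγ values behind them may have served in the choice. Against WT the values of the IFNγ response were −0.69 in DKO, −1.54 in IRF2KO and 0.37 in IRF1KO, given with no test. For IFNα the response relative to WT was −0.23 ± 0.48 in DKO, −1.04 ± 0.48 in IRF2KO and 0.42 ± 0.48 in IRF1KO cells, also with no test.

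**Figure D2:**
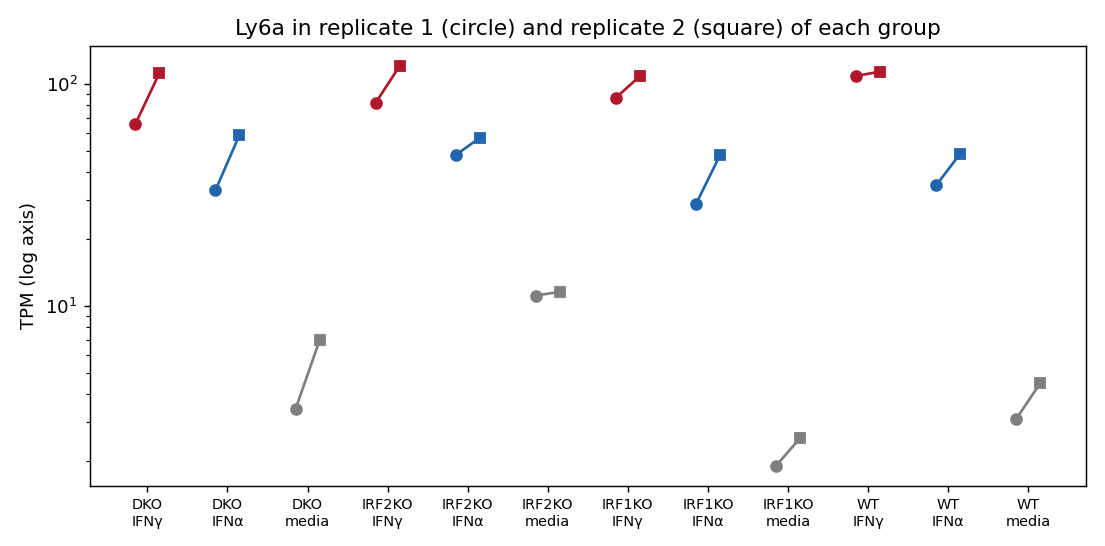
Ly6a in TPM (log axis) in replicate 1 (circle) and replicate 2 (square) of the 12 groups, lines joining the libraries of a group, with IFNγ, IFNα and media from left to right within DKO, IRF2KO, IRF1KO and WT. The square is above the circle in 12 of 12 groups, and the media pair of IRF2KO, at 11.12 and 11.56 TPM, is above the other media pairs.

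Of 21 Ly6-type genes listed, 18 were in the table and 5 passed the filter. Ly6c1 rose with IFNγ by 1.91 ± 0.27 in DKO (limma adjusted p = 0.00105), 1.91 ± 0.27 in IRF2KO (adjusted p = 0.000732), 2.26 ± 0.27 in IRF1KO (adjusted p = 0.000145) and 2.09 ± 0.27 in WT cells (adjusted p = 0.000224). Its highest level was only 4.37 TPM, in DKO with IFNγ. Ly6e, with a mean of 395.2 TPM the most abundant of the list, was not called with either interferon, but it was higher in IRF2KO than in WT in media (0.47 ± 0.10, limma adjusted p = 0.0326) and with IFNα (0.45 ± 0.10, adjusted p = 0.0401). The median of the 5 genes with IFNγ was 0.61 in DKO, 0.61 in IRF2KO, 0.47 in IRF1KO and 0.79 in WT cells. Ly6a shares sequence with its neighbours on chromosome 15: 246 of 1297 stretches of 50 bases in its GENCODE transcripts also occur in transcripts of other genes, 195 of them in Ly6c1 and 31 in Ly6i. RSEM divides such reads between genes by estimate, and so part of the signal of each may belong to the other.

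Icam1 was abundant in media and higher with IFNγ. With IFNγ it stood at 401.96 and 506.89 TPM in DKO, 383.17 and 365.35 TPM in IRF2KO, 509.31 and 492.77 TPM in IRF1KO, and 478.46 and 406.23 TPM in WT cells. With IFNα it stood at 185.71 and 202.03 TPM in DKO, 225.95 and 197.37 TPM in IRF2KO, 201.62 and 202.21 TPM in IRF1KO, and 170.28 and 187.38 TPM in WT cells. In media it stood at 167.18 and 160.51 TPM in DKO, 132.71 and 141.67 TPM in IRF2KO, 157.29 and 125.66 TPM in IRF1KO, and 137.07 and 118.81 TPM in WT cells. All 8 IFNγ libraries were above all 8 IFNα libraries, and these were above all 8 media libraries.

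On the log2 scale Icam1 with IFNγ stood above media by 1.46 ± 0.13 in DKO (SE, n = 2 per group), 1.44 ± 0.13 in IRF2KO, 1.83 ± 0.13 in IRF1KO and 1.78 in WT cells. The ratio of mean TPM was 2.77 in DKO, 2.73 in IRF2KO, 3.54 in IRF1KO and 3.46 in WT cells. IFNγ stood above IFNα by 1.22 ± 0.13 in DKO, 0.82 ± 0.13 in IRF2KO and 1.31 ± 0.13 in IRF1KO cells. For the IFNγ response, DKO minus IRF1KO was −0.37 ± 0.18, IRF2KO minus IRF1KO −0.38 ± 0.18 and DKO minus IRF2KO 0.02 ± 0.18 (each adjusted p = 1, limma). The IFNγ values behind them may have served in the choice, so nothing is read from these p-values.

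Of the mutant lines, limma called the IFNα difference of Icam1 in IRF2KO, at 0.62 ± 0.13 (adjusted p = 0.0177). This call was lost with only the compared groups in the fit (adjusted p = 0.351), without IRF2KO replicate 1 with IFNα (adjusted p = 0.333), without replicate 1 in media (0.229) and without replicate 2 in media (0.0799). In the other lines the difference was 0.24 ± 0.13 in DKO (adjusted p = 0.899), 0.52 ± 0.13 in IRF1KO (adjusted p = 0.108, and 0.0113 with TMM scaling) and, with no test, 0.48 ± 0.13 in WT cells. Relative to WT it was −0.24 ± 0.18 in DKO, 0.14 ± 0.18 in IRF2KO and 0.04 ± 0.18 in IRF1KO cells. In media, DKO stood above WT by 0.36 ± 0.13.

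Of 9 adhesion molecules of its immunoglobulin type 5 were tested, and none of the 4 others was called with IFNγ in any line; Alcam averaged 34.44 TPM and Icam2 11.84 TPM. Vcam1, the vascular adhesion molecule, reached at most 0.06 TPM. The median of the 5 genes with IFNγ was 0.15 in DKO, 0.01 in IRF2KO, 0.05 in IRF1KO and −0.04 in WT cells. None of its 9 listed partners was called with either interferon, although they were expressed: Itgal and Itgb2, the chains of LFA-1, averaged 51.41 and 159.4 TPM, Itgam, a chain of the Mac-1 receptor, 33.72 TPM, and moesin (Msn), which links it to the cytoskeleton, 645.9 TPM. Between lines, Itgax, the integrin chain CD11c, was lower in DKO than in WT in media (−0.76 ± 0.13, limma adjusted p = 0.00595), with IFNα (−0.66 ± 0.13, adjusted p = 0.0129) and with IFNγ (−0.68 ± 0.13, adjusted p = 0.00926), and lower in IRF2KO than in WT in media (−0.66 ± 0.13, adjusted p = 0.0166) and with IFNγ (−0.61 ± 0.13, adjusted p = 0.0316). Spn, the gene of the sialoglycoprotein CD43, was lower with IFNγ in DKO (−1.09 ± 0.18, adjusted p = 0.00235) and IRF2KO (−0.87 ± 0.18, adjusted p = 0.0261) than in WT, and in media in IRF2KO (−0.96 ± 0.18, adjusted p = 0.0115). Of the 50-base stretches of Icam1 transcripts 2.27% also occur in other genes.

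**Figure D3:**
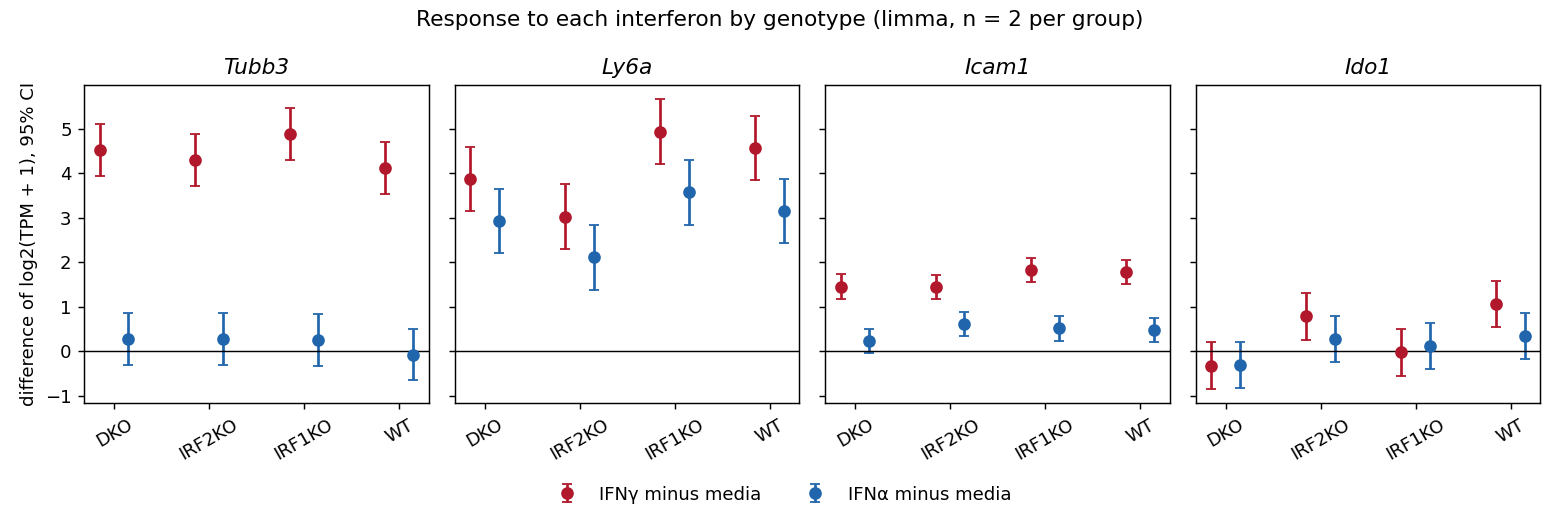
Differences of log2(TPM + 1) of the 4 genes, IFNγ minus media and IFNα minus media, in DKO, IRF2KO, IRF1KO and WT, with 95% intervals of the limma fit (n = 2 libraries per group); the genes were chosen for their IFNγ values. Tubb3 lies between 4.12 and 4.89 with IFNγ and near 0 with IFNα, Ly6a is above 2 with both, and Ido1 is at −0.32 in DKO and −0.02 in IRF1KO with IFNγ.

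Ido1 was close to the lower limit of the measurement, and its IFNγ rise was seen only as values in WT and IRF2KO cells. With IFNγ it stood at 0.13 and 0.24 TPM in DKO, 1.21 and 0.77 TPM in IRF2KO, 0.13 and 0.27 TPM in IRF1KO, and 1.17 and 2.19 TPM in WT cells. With IFNα it stood at 0.09 and 0.31 TPM in DKO, 0.29 and 0.49 TPM in IRF2KO, 0.14 and 0.54 TPM in IRF1KO, and 0.43 and 0.79 TPM in WT cells. In media it stood at 0.36 and 0.6 TPM in DKO, 0.23 and 0.07 TPM in IRF2KO, 0.48 TPM and listed at 0 in IRF1KO, and 0.16 and 0.37 TPM in WT cells. Both IFNγ libraries were above both media libraries in IRF2KO and WT, both were below them in DKO, and they overlapped in IRF1KO. Ido1 reached 1 TPM in 3 of 24 libraries and passed the filter through IFNγ libraries of WT and IRF2KO alone, so a difference at that point was built in.

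The IFNγ values of Ido1 are given with no test. IFNγ against media was −0.32 ± 0.25 in DKO (log2, SE), 0.79 ± 0.25 in IRF2KO, −0.02 ± 0.25 in IRF1KO and 1.06 in WT cells. With IFNγ, DKO differed from IRF2KO by −0.74 ± 0.25 and from IRF1KO by −0.02 ± 0.25. The values against WT under IFNγ were −1.15 in DKO, −0.41 in IRF2KO and −1.14 in IRF1KO. IFNα against media lay between −0.30 in DKO and 0.34 in WT cells and was not called by limma in a mutant line. Of 16 listed genes of tryptophan handling 8 were tested, and none of the others was called with IFNγ in any line. Kmo, which encodes kynurenine 3-monooxygenase, averaged 6.039 TPM, and the paralogue Ido2 stayed between 0.13 and 1.3 TPM, below the filter.

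The calls are set here against the share of all 11842 genes called. For IFNα against media limma called Ly6a in each mutant line and Icam1 in IRF2KO, all rises, against 1.01% of all genes in DKO, 1.39% in IRF2KO and 0.819% in IRF1KO. In WT the share was 1.04%. The media libraries behind these calls may have served in the choice. For IFNγ against media, for which the genes were chosen, Tubb3, Ly6a and Icam1 passed the threshold in each mutant line, 9 of 12 comparisons, and nothing is read from this. Of all genes, 0.777% were called in DKO, 1.13% in IRF2KO, 1.16% in IRF1KO and 1.26% in WT. With only the compared groups in the fit, Ly6a and Icam1 were not called in DKO (both adjusted p = 0.139), nor Icam1 in IRF1KO (0.0595). For IFNγ against IFNα, likewise with nothing read from it, Tubb3 and Icam1 passed in each mutant line, 6 of 12 comparisons, against 0.904% of all genes in DKO, 0.819% in IRF2KO, 0.946% in IRF1KO and 0.768% in WT. With only the compared groups, Icam1 did not pass in DKO (adjusted p = 0.256) or IRF2KO (0.293). Blocking on the replicate number added Ly6a and made that 9 of 12, against 1.55% of all genes in DKO, 1.25% in IRF2KO and 1.51% in IRF1KO. The comparisons of a line share libraries, so these counts are not independent.

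Differences of the members from WT are given with no test. In media the share of all genes called against WT was 0.76% for DKO, 0.836% for IRF2KO and 0 for IRF1KO in media, where limma called 0 genes and 305 had an unadjusted p under 0.05. With IFNα it was 1.05% for DKO, 0.971% for IRF2KO and 0.177% for IRF1KO. Of 24 comparisons of DKO with the single mutants limma without the block called 0, and with it 2. Ly6a in media had an unadjusted limma p under 0.05 against each single mutant. So had 995 of 11842 genes against IRF2KO and 832 against IRF1KO in media. For Ido1 with IFNγ against IRF2KO the filter built a difference in, so its p is not read. Against IRF2KO the share of all genes called was 0.481% with IFNγ, 0.38% with IFNα and 0.118% in media. Against IRF1KO it was 0.819% with IFNγ, 0.844% with IFNα and 0.667% in media. Blocking on the replicate number, Ly6a was called in DKO in media, against 0.194% of all genes for IRF2KO and 1.7% for IRF1KO. For IRF2KO against WT in media the share with the block was 1.8%.

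Without the block, no member was called by limma for a difference in IFNγ response between mutant lines. For Ly6a the unadjusted limma p was under 0.05 in DKO minus IRF1KO, as for 194 genes in all. It was also under 0.05 in IRF2KO minus IRF1KO, as for 276 genes in all. These differences rest on IFNγ values that may have served in the choice, so nothing is read from them. For Ido1 the filter built a difference in with IRF2KO, and its p-values are not read. For the IFNα response relative to WT the background was 0.0844% for DKO, 0.0676% for IRF2KO and 0.0253% for IRF1KO. For the IFNγ response it was 0.127% for DKO minus IRF2KO, 0.127% for IRF2KO minus IRF1KO and 0 for DKO minus IRF1KO, where limma called 0 genes and 194 had an unadjusted p under 0.05. With the block IRF2KO minus IRF1KO called Ly6a, against 0.16% of all genes.

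**Figure D4:**
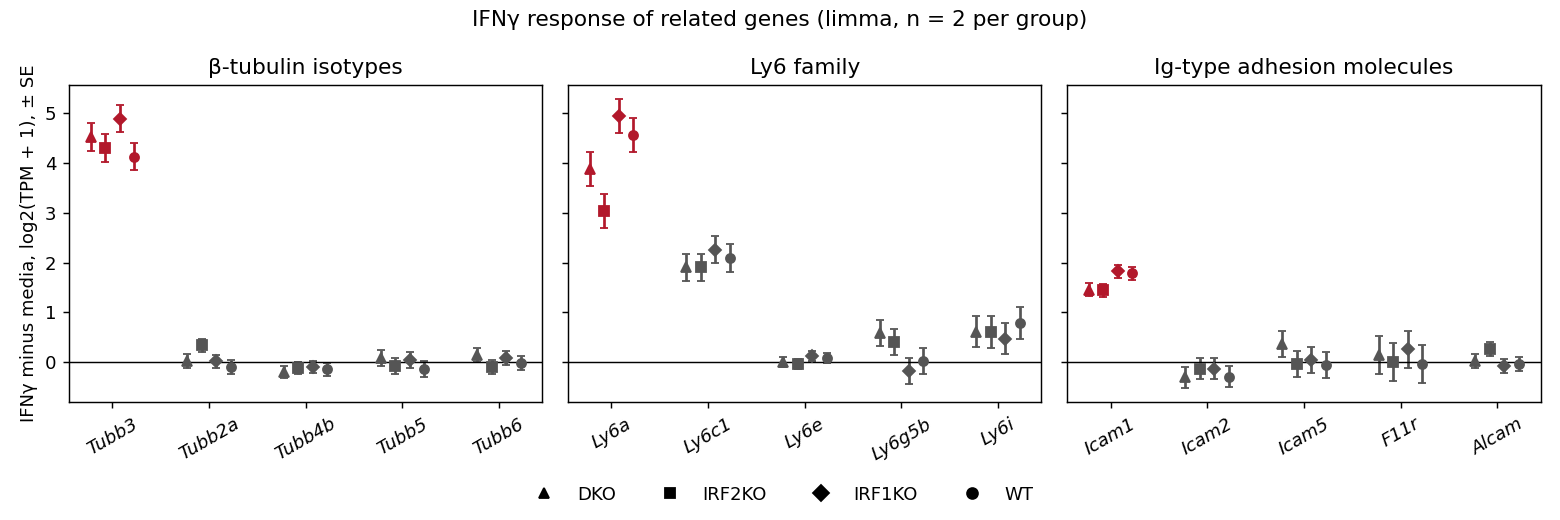
IFNγ minus media on the log2(TPM + 1) scale, ± SE (limma, n = 2 libraries per group), for the tested β-tubulins, Ly6 family genes and immunoglobulin-type adhesion molecules, with symbols for DKO, IRF2KO, IRF1KO and WT and the chosen genes in red. Tubb3 at 4.12 to 4.89 and Icam1 at 1.44 to 1.83 are apart from their relatives, and Ly6c1, at 1.91 to 2.26, lies between Ly6a and the other Ly6 genes.

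Of 16 genes of IFNγ receptor signalling 6 were called with IFNγ in each of the 4 lines, among them Irf1, Irf8 and Irf9. Irf1, an early target of IFNγ, rose by 4.22 ± 0.17 in DKO (limma adjusted p = 3.36e-10), 4.05 ± 0.17 in IRF2KO (adjusted p = 4.41e-10), 4.60 ± 0.17 in IRF1KO (adjusted p = 1.39e-10) and 4.40 ± 0.17 in WT cells (adjusted p = 1.34e-10). The receptor chains Ifngr1 and Ifngr2, with means of 35.38 and 199.8 TPM, were not called. Of 19 tested GAS-type IFNγ genes outside the members, chosen with earlier results known, 8 rose in DKO, 10 in IRF2KO, 8 in IRF1KO and 11 in WT cells, with medians of 1.38, 1.55, 1.34 and 1.64 in that order, and none fell. Many of these calls were shared with IFNα. With IFNα, 5 of the 16 signalling genes were called in DKO, 6 in IRF2KO, 5 in IRF1KO and 5 in WT cells. Irf1 and Irf9 were among them in each line, and Irf8 in none. Of the 19 GAS-type genes, 6 rose with IFNα in DKO, 9 in IRF2KO, 5 in IRF1KO and 5 in WT cells.

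Likeness was taken as Pearson's r over the 12 group means of log2(TPM + 1), among 9339 candidate genes, or 9340 for Ido1, and it describes treatments and lines that all genes share. The genes most like Tubb3 were Enc1 (r = 0.994), Irf8 (0.981) and 9430020K01Rik (0.979). Those most like Icam1 were Ralgds (0.998), Fchsd2 (0.989) and Irak2 (0.986). Those most like Ly6a were Irgm2 (0.982), Gm4951 (0.982) and Tmem173 (0.973). Ido1 was most like Gm4841 (0.936), with BC023105 (0.834) and Rbm25 (0.832) farther off. Among themselves, Tubb3 and Icam1 had r = 0.96, Ly6a and Icam1 0.845, Ly6a and Tubb3 0.716, and Ido1 had 0.386 to 0.41 with the other 3.

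The 6 single libraries added LPS, a bacterial cell wall component that acts through TLR4, and were quantified on another set of transcripts, so their levels are not set against those above. There is 1 library per condition and no test. Icam1 stood at 580.16 TPM with LPS, 122.56 TPM with IFNα and 89.56 TPM at 0 h in IRF2KO cells, and at 595.77, 137.47 and 85.11 TPM in the same order in WT cells. The difference of LPS from 0 h was 2.68 in IRF2KO and 2.79 in WT cells on the log2(TPM + 1) scale, beside 2.58 and 2.75 for Nfkbia, an NF-κB target, in the same lines. Icam1 was the only member past 1 log2 unit with LPS, where 2.4% of 10410 genes were that much higher in IRF2KO and 2.19% in WT cells.

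Tubb3 stood at 4.37 TPM with LPS, 13.06 TPM with IFNα and 8.27 TPM at 0 h in IRF2KO cells, and at 4.25, 13.13 and 7.26 TPM in WT cells. LPS against 0 h was −0.79 in IRF2KO and −0.65 in WT cells, and IFNα against 0 h was 0.60 and 0.77. In the replicated libraries the difference of IFNα from media was at most 0.27, against another baseline.

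Ly6a stood at 81.76 TPM with LPS, 329.69 TPM with IFNα and 108.26 TPM at 0 h in IRF2KO cells, and at 17.63, 148.77 and 19.56 TPM in WT cells. IRF2KO was thus above WT in each condition, by 2.15 with LPS, 1.14 with IFNα and 2.41 at 0 h on the log2 scale. IFNα against 0 h was 1.60 in IRF2KO and 2.87 in WT cells, and Ly6a was the only member past 1 log2 unit with IFNα, where 1.81% of all genes were in IRF2KO and 1.6% in WT cells. Ido1 stood at 0.47 TPM with LPS, 1.28 TPM with IFNα and 0.24 TPM at 0 h in IRF2KO cells, and at 0.8, 1.02 and 0.7 TPM in WT cells, too low to order.

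**Figure D5:**
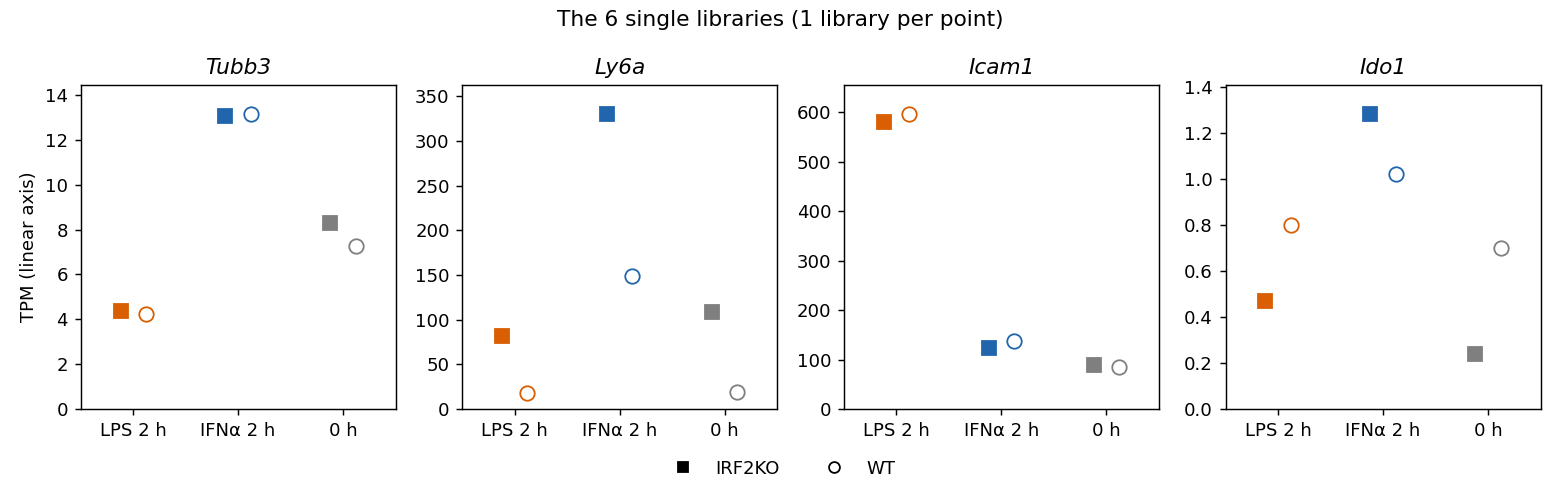
TPM (linear axis from 0) of the 4 genes in the 6 single libraries, with LPS, IFNα and 0 h from left to right, filled squares for IRF2KO and open circles for WT; each point is 1 library. Icam1 reaches 580.16 and 595.77 TPM with LPS, and Ly6a is higher in IRF2KO than in WT in each condition.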

How the data were processed

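RNA from 30 libraries of DC3.2 cells was sequenced, and the authors deposited 1 table of TPM values, used as given. The submitters' processing notes name bcl2fastq 2.20, Bowtie 0.12.2 and RSEM, with the builds mm10 and GRCm38 in no stated role. TPM is normalised for transcript length and library total, so no count model could be used, and a gene can fall because others rise. Of 41346 entries, 9919 symbols stand in 2, since the 24 replicated and 6 single libraries used different transcript sets; entries were summed per symbol within each set. Tubb3 and Ly6a have 1 entry for both sets, Icam1 and Ido1 1 for each.

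For the replicated libraries log2(TPM + 1) was modelled in limma 3.58.1 under R 4.3.3, with 12 group means and trended prior variances. Genes had to reach 1 TPM in 2 or more of 24 libraries, which 11842 did. Residual degrees of freedom were 12. Tests were two-sided, adjusted by Benjamini-Hochberg within each comparison, and called at an adjusted p under 0.05; the fit was tested on simulated data. A fold change on this scale understates that of low genes such as Ido1. The members and the gene lists were chosen with earlier results of these data known. Contrasts that may have served in the choice, planned as tests in part, are given as values. Differences between mutant lines that are built from such values keep their p-values, from which nothing is read. Named are the 4 members, list genes that were called or among the 4 most abundant of their list, Irf1, and per member the 3 genes with the highest r among genes of at least 5 TPM in 1 group; Irf2, Flt3, Vcam1, Ido2, Mc1r, the IFNγ receptor chains and single markers were named beyond this after their values were seen. 1 gene that the rule names is not reported here.

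Titles give each replicate number its own date-like code, 1 per number, so the numbers were taken as pairs in a second fit. The main fit leaves this pairing out, and its standard errors hold any shift between the replicate numbers. For 56 of 66 pairs of groups the same-numbered deviations had r above 0.1 (median 0.233, −0.16 to 0.481). The fit with the replicate number as a block is printed where it changes a call. No comparison could be tested within 1 code, which holds 1 library per group. Alternatives changed the pseudocount (0.1 or 5), the filter (none, or a 5 TPM mean), the scaling (TMM or quantile), the prior (robust), the block, the libraries fitted (the compared groups alone) or left out each library. Single libraries were compared as differences of log2(TPM + 1), over 10410 genes for the background, with Python 3.11.15, numpy 2.4.6, pandas 2.3.3 and matplotlib 3.10.9. Shared 50-base stretches were counted in GENCODE transcripts.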

Additional observations from a re-analysis of the deposited data

Results flagged for a closer look

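The IFNγ response of Ido1 ran in opposite directions in DKO and WT cells: both replicate numbers moved down in DKO and up in WT, and DKO minus WT was −1.379 on the log2(TPM + 1) scale. The difference was not tested, because the gene was chosen for its IFNγ response. Ido1 also passed the filter through IFNγ libraries of WT and IRF2KO alone, so a high WT level with IFNγ was built in. In DKO cells the levels were 0.13 and 0.24 TPM with IFNγ against 0.36 and 0.6 TPM in media. With IFNα they were also below media, at 0.09 and 0.31 TPM. In WT cells they were 1.17 and 2.19 TPM with IFNγ against 0.16 and 0.37 TPM in media.

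The IFNγ response of Ly6a was smaller in IRF2KO than in IRF1KO cells, by −1.91 ± 0.48 (SE). The interaction in limma gave an adjusted p of 0.492, and of 0.00404 with the replicate number as a block; over the alternatives it ran from 0.00404 to 1. The IFNγ values behind it may have served in the choice of the gene, so nothing is read from these p-values. With IFNγ the levels overlapped, at 82.1 and 120.64 TPM in IRF2KO and 86.68 and 108.47 TPM in IRF1KO cells. In media they were 11.12 and 11.56 TPM in IRF2KO and 1.9 and 2.53 TPM in IRF1KO cells.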

How the results depend on the processing

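No value of the 4 genes that was given with a test and called in the main fit reversed its direction under the alternatives. Values that were not called were not followed for direction, and small ones can change sign. With the replicate block, 1 member (Ly6a) was called in place of 0 in IRF2KO against WT, DKO against IRF1KO and DKO against IRF2KO in media, and in the IFNγ response of IRF2KO minus IRF1KO; the block also brought Ly6a past the threshold for IFNγ against IFNα in all 4 lines and for the IFNγ response of IRF2KO minus WT, which are given with no test, and changed no other call. Counts against WT, in WT and for IFNγ against media or IFNα describe comparisons that served in the choice, and nothing is read from them. With TMM scaling 2 members in place of 1 were called with IFNα in WT and in IRF1KO, Icam1 being added. With only the compared groups in the fit, which leaves fewer libraries to estimate the spread, 1 member was called in place of 2 for IFNα against media and for IFNγ against IFNα in IRF2KO, 1 in place of 3 for IFNγ against media (Ly6a and Icam1 lost) and 1 in place of 2 for IFNγ against IFNα in DKO, and 0 in place of 1 for IFNα against media in DKO. Leaving out 1 library at a time gave 1 to 2 members for IFNα against media in IRF1KO (2 without IRF1KO media replicate 1), 1 to 2 in IRF2KO, and 1 to 2 for IFNγ against IFNα in IRF2KO. Where a group kept 1 library, it was assumed to vary like the others. At a pseudocount of 5, Ly6a passed the threshold for IFNγ against IFNα in IRF1KO. A filter on a mean of at least 5 TPM leaves Ido1 untested. TPM holds no depth, so what it limits could not be judged; Ido1, under 1 TPM in most libraries, is the least certain of the 4.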
